A study of Homo sapiens with 6 samples.

Results

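The genes of the BCL2 family decide whether the outer membrane of the mitochondrion stays closed or is opened during apoptosis. The 10 members described here were chosen by name and not by a rule on their values, although earlier results of these data were known. They were 4 anti-apoptotic genes (BCL2, BCL2L1, MCL1 and BCL2A1), 4 genes of the BH3-only class (BCL2L11, PMAIP1, BBC3 and BIK) and the 2 effectors BAX and BAK1. All 10 were found by gene symbol among the 135750 probe sets for transcripts on the arrays, each with 1 probe set, so no choice between probe sets had to be made.

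In healthy cells the anti-apoptotic proteins hold the effectors BAX and BAK in check. BH3-only proteins, which are raised or activated by stress such as DNA damage, loss of growth factors or a disturbed endoplasmic reticulum, bind the anti-apoptotic proteins or the effectors directly. Freed BAX and BAK form pores, cytochrome c leaves the mitochondrion, and the apoptosome activates caspases. Many of these proteins are also controlled after the RNA is made, by phosphorylation, by a change of location or by rapid turnover as with MCL1, and arrays do not measure this.

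MCF10.AT1 cells are preneoplastic human breast epithelial cells that descend from MCF10A through an activated HRAS gene. MCF10.AT1-R was selected from it in fluvastatin, an inhibitor of HMG-CoA reductase, at doses raised from 1 to 20 µM, and it is a single selected line, so its arrays do not show how independent selections would vary. The labels call the MCF10.AT1 samples untreated and fluvastatin sensitive and the MCF10.AT1-R samples fluvastatin resistant, with 3 biological replicates of each, and give the same treatment text for all of them, which does not say whether the drug was present when RNA was taken. How the biological replicates were kept separate is not stated, so the spread between these arrays may be technical. In the main comparison the p-values rest on that spread pooled over all probe sets tested, not on that of each gene alone. The array names carry an A for every MCF10.AT1 array (A01, A02, A03) and a B for every MCF10.AT1-R array (B02, B03, B04), so whatever the letter stands for cannot be told apart from the line.

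Total RNA was measured on Clariom D arrays, and the deposited values are log2 expression levels made by the RMA method, in which 1 unit is a doubling. The levels of different probe sets are not comparable with each other, so each gene was compared only with itself across arrays. A03, which the study left out as an outlier, is given apart. It correlated with the other arrays at 0.779 to 0.795 over all transcript probe sets, against at least 0.967 among the other 5. Its hybridization control probe sets averaged 3.77, against 6.81 to 7.11 on the other 5 arrays. The comparison used A01 and A02 against B02, B03 and B04. Probe sets of low level or low spread were removed and the other 51457 were fitted with limma, a linear model that borrows an estimate of the spread across probe sets. In this fit 620 probe sets passed a false discovery rate (FDR) of 5%, which is 1.2% of those tested. There were 612 probe sets named as negative controls. Their 95th percentile, 2.99 on average over the 5 arrays, is used below as the edge of the background.

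Both lines carried marks of breast epithelium, basal ones among them. All 8 markers (KRT5, KRT14, KRT17, TP63, ITGB4, LAMB3, CDH1 and EPCAM) were above the negative controls on each of the 5 arrays. Of these, CDH1 and EPCAM mark epithelium in general. The summed log2 level of the 8 was 53.0 to 54.0 in MCF10.AT1 and 67.7 to 68.6 in MCF10.AT1-R. Past FDR 5%, 6 of the 8 rose, CDH1 among them. Of 5 markers of cornifying keratinocytes, IVL and KRT1 rose past FDR 5%, the summed level was 14.3 to 14.8 against 18.6 to 20.0, and FLG was within the negative controls on all 5 arrays. PTPRC, the defining marker of leukocytes, was within the negative controls on all 5 arrays. CD14, CD3E and CD79A were above them on all 5. The same held for COL1A1 and COL3A1 among the fibroblast markers and for PECAM1 and VWF among the endothelial ones. The sum over the 6 leukocyte and blood markers was 18.7 to 20.3 in MCF10.AT1 and 18.6 to 20.1 in MCF10.AT1-R. CD14, the fibroblast gene DCN and the endothelial gene PECAM1 fell past FDR 5%. The summed fibroblast markers were 21.7 to 21.8 in MCF10.AT1 and 18.5 to 20.0 in MCF10.AT1-R, and the endothelial ones 11.8 to 12.0 and 10.2 to 10.9. The part of these shifts in the results on the BCL2 family was not tested. In RNA from whole cultures, fewer cells of a type and less RNA per cell cannot be told apart.

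None of the 10 BCL2 family genes passed FDR 5% between the lines in limma, against 1.2% of all probe sets tested. At an unadjusted p below 0.05 only PMAIP1 did. All probe sets that passed the filter had the same standard error in this fit, so p followed the size of the difference alone. A log2 difference of 0.62 (CASP6) was past that p, and 0.60 (ITGAM) was not. The 5th and 95th percentiles of the difference over all tested probe sets were -0.58 and 0.57. Under 5% of them were therefore past that p in each direction, and the exact share was not counted. The arrays of the lines separated for 3 genes. For PMAIP1, BCL2L11 and BAX, all 3 of them pro-apoptotic, every MCF10.AT1-R array lay above both MCF10.AT1 arrays. Such an order, higher in MCF10.AT1-R without overlap, was found for 12.2% of all 135750 transcript probe sets, and the reverse order for 11.1% (23.3% in all, and 26.7% of those tested). The 10 genes were also without a call when the low-expression filter was used alone (0.268% of all probe sets passing) or together with an SD that may change with the level (1.6%). No member had the reverse order, and all 4 anti-apoptotic genes overlapped between the lines. The median log2 difference (MCF10.AT1-R minus MCF10.AT1) was 0.25 over the 6 pro-apoptotic genes and -0.11 over the 4 anti-apoptotic ones. Over all 10 it was 0.06, beside 0.01 over all transcript probe sets, and the difference between the roles was not tested.

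**Figure D1:**
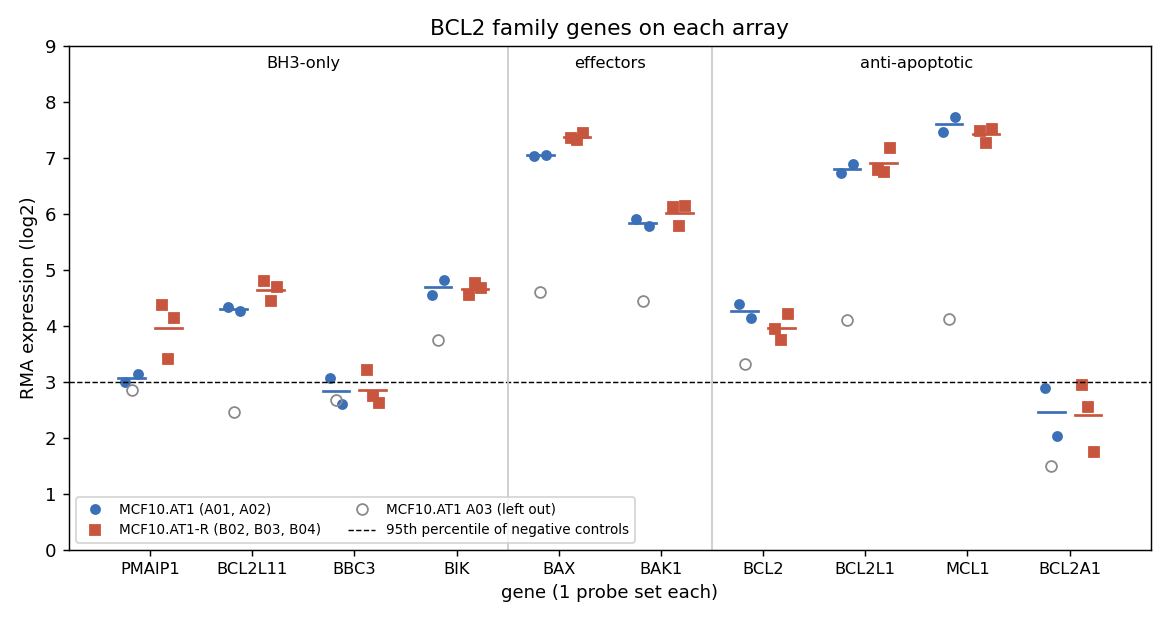
RMA expression (log2, vertical axis) of the 10 BCL2 family genes on each array, grouped by role. Filled circles are A01 and A02 of MCF10.AT1, squares are the 3 MCF10.AT1-R arrays, short lines are their means, open circles are A03, and the dashed line at 2.99 is the edge of the negative controls. Squares and filled circles are separate only for PMAIP1, BCL2L11 and BAX.

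The proximal promoters of these 3 genes are shown because they are the members whose arrays separated. The sequences are RefSeq's (GRCh38.p14), 250 bases up to the transcription start, 5′ to 3′ on the strand of the gene. Capitals mark the E-box CACGTG, bound by MYC and its relatives, and the core of the cyclic AMP response element, ACGTCA on the strand shown or TGACGT when read from the other, bound by CREB and ATF factors. The positions are chr18:59899746-59899995 (plus strand) for PMAIP1, chr2:111120664-111120913 (plus strand) for BCL2L11 and chr19:48954625-48954874 (plus strand) for BAX.
PMAIP1: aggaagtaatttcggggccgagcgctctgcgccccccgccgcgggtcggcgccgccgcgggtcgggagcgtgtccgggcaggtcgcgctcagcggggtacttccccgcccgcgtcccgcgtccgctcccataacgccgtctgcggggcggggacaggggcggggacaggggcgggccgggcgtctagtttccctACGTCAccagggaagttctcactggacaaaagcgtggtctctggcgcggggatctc
BCL2L11: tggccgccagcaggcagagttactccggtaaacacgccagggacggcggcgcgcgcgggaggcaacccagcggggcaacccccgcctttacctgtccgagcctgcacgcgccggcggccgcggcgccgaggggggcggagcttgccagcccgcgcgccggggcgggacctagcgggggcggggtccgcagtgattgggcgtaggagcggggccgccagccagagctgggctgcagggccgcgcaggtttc
BAX: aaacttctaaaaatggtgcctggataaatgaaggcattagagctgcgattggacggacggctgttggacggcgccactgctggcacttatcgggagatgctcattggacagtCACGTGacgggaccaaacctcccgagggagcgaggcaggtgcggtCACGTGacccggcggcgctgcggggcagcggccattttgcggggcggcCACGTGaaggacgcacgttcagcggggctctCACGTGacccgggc

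The BAX window holds 4 E-boxes, which begin 138, 93, 45 and 14 bases before the start. At least 1 E-box is in 6.34% of the 35116 RefSeq promoter windows of this length, and 4 or more are in 5 of them. PMAIP1 has the response element core once, 56 bases before the start, as do 7.1% of windows at least once. BCL2L11 has neither, and all 3 windows hold the GC box (GGGCGG, which reads as CCGCCC when it lies on the other strand), 4 times in PMAIP1, 3 times in BCL2L11 and once in BAX, as 42.6% of windows do at least once. None of these matches overlap each other. Of the 10 genes, 8 have an entry among these promoters, with 2 entries for BCL2L1, and MCL1 and BIK have none. Among the other entries BBC3 has 1 E-box and BAK1 has 2 GC boxes. A match in the letters does not show that a factor binds there.

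PMAIP1 encodes NOXA, a small BH3-only protein that binds chiefly MCL1 and BCL2A1 and is a known target of ATF4. It read 3.00 on A01 and 3.14 on A02, and 4.36 on B02, 3.40 on B03 and 4.13 on B04. All MCF10.AT1-R arrays were above both MCF10.AT1 arrays, and B03 stood closest to them, with a gap of 0.26. The log2 difference was 0.90 (standard error 0.31, 95% interval 0.29 to 1.51), or 1.86-fold, with adjusted p = 0.179 from limma. This difference was larger in size than that of 97.8% of the probe sets tested. Its interval rests on a single SD of 0.34 that limma used for all of them, while the residual SD of PMAIP1 was 0.41. Without the filter the adjusted p was 0.606 from limma. Without B03 the difference was 1.18 and passed (adjusted p = 0.0315 from limma), and in the other fits with 1 array left out it lay between 0.70 and 0.97 and did not pass. The MCF10.AT1 level was at the edge of the background, since both arrays were just above 2.99. Against the 95th percentile of each array's own negative controls, A01 was below (3.14) and A02 above (3.03). On A03 PMAIP1 read 2.85, within the negative controls.

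BCL2L11 encodes BIM, a BH3-only protein that binds all anti-apoptotic members and can activate BAX directly, and its transcription is raised by FOXO factors when growth signals cease. It read 4.34 on A01 and 4.26 on A02, and 4.8, 4.44 and 4.69 on B02, B03 and B04. The lines were separated by a gap of only 0.10, between B03 and A01. The log2 difference was 0.35 (standard error 0.31, 95% interval -0.27 to 0.96), or 1.27-fold, with an adjusted p of 0.834 from limma. It was higher in MCF10.AT1-R in every fit with 1 array left out, by 0.27 to 0.45. A03 read 2.45 for this gene.

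BBC3 encodes PUMA, a BH3-only protein that is raised after DNA damage and binds all anti-apoptotic members. Its values were 3.06 and 2.60 on A01 and A02, against 3.20 on B02, 2.75 on B03 and 2.62 on B04. The arrays of the lines were mixed, and 3 of the 5 lay within the negative controls, so its level was barely measured. The log2 difference of 0.03 had a 95% interval from -0.58 to 0.64 in limma. On A03 it read 2.67.

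BIK, a BH3-only protein of the endoplasmic reticulum found in many epithelial cells, was measured well above the negative controls. It read 4.55 on A01 and 4.82 on A02, and 4.54, 4.77 and 4.67 on B02, B03 and B04. All 3 MCF10.AT1-R values lay within or at the edge of the MCF10.AT1 range. BIK was removed by the filter on low spread, and in limma without a filter, where 0.13% of all probe sets passed FDR 5%, its difference was -0.02 with a 95% interval from -0.47 to 0.42. On A03 it read 3.75.

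Of the 2 effectors, which form the pores, BAX had the closest replicates of all members. It read 7.04 on A01 and 7.05 on A02, and 7.36, 7.32 and 7.44 on B02, B03 and B04. The gap between the lines of 0.27 was larger than the spread within either (SD 0.01, n = 2, and 0.06, n = 3). The log2 difference was 0.33, or 1.26-fold, with a 95% interval from -0.28 to 0.94 and an adjusted p of 0.835 from limma. That interval rests on the common SD of 0.34 that limma used for all probe sets, while the residual SD of BAX was 0.05. When the SD was let vary with the expression level, the interval was 0.005 to 0.66, and BAX was still not past FDR 5% (adjusted p = 0.491 from limma), as 2.68% of the probe sets tested were. A03 read 4.60, far below the other arrays.

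BAK1, the other effector, read 5.90 on A01 and 5.78 on A02, and 6.12 on B02, 5.79 on B03 and 6.13 on B04. B02 and B04 were above both MCF10.AT1 arrays, while B03 fell between them. BAK1 was also removed by the filter on low spread, and its difference in limma without a filter was 0.17 (95% interval -0.29 to 0.63, adjusted p = 0.915). On A03 it read 4.45. Processed pseudogenes of BAK1 have their own probe sets, and cross-hybridization between them and BAK1 cannot be told from these values. BAK1P1 read 4.09, 3.27, 4.33, 4.10 and 3.57 in the order A01, A02, B02, B03 and B04 and did not follow BAK1, and BAK1P2 stayed within the negative controls at 2.00 to 2.44.

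Among the anti-apoptotic genes, BCL2 had the largest difference, and it was lower in MCF10.AT1-R. BCL2, the founding member, read 4.38 on A01 and 4.14 on A02, and 3.94, 3.74 and 4.21 on B02, B03 and B04. Only B04, which fell between the MCF10.AT1 arrays, kept the lines from separating. The log2 difference was -0.30 (standard error 0.31, 95% interval -0.91 to 0.31), with an adjusted p of 0.839 from limma. It stayed below 0 in every fit with 1 array left out, from -0.42 to -0.18. On A03 BCL2 read 3.31.

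BCL2L1 encodes BCL-XL, a main survival protein of epithelial cells, and also the shorter pro-apoptotic form BCL-XS, which a single probe set does not separate. It read 6.73 on A01 and 6.88 on A02, and 6.77, 6.75 and 7.18 on B02, B03 and B04. Only B04 lay outside the MCF10.AT1 range. The log2 difference of 0.10 (95% interval -0.51 to 0.71 from limma) became -0.043 without B04. A03 read 4.11.

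MCL1, a survival protein with a short half-life and the main partner of NOXA, read 7.46 on A01 and 7.73 on A02, against 7.47 on B02, 7.27 on B03 and 7.52 on B04. The arrays overlapped, with B03 the lowest. The filter on low spread removed MCL1, and its difference in limma without a filter was -0.18 with a 95% interval from -0.63 to 0.27. On A03 it read 4.12.

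BCL2A1, a survival gene induced by NF-κB and known mostly from blood cells, was within the negative controls on all 5 arrays. It read 2.88 on A01, 2.02 on A02, 2.94 on B02, 2.54 on B03 and 1.75 on B04, and 1.49 on A03. The values varied more within each line (SD 0.61, n = 2, and 0.60, n = 3) than between them, and no level can be given for either line.

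**Figure D2:**
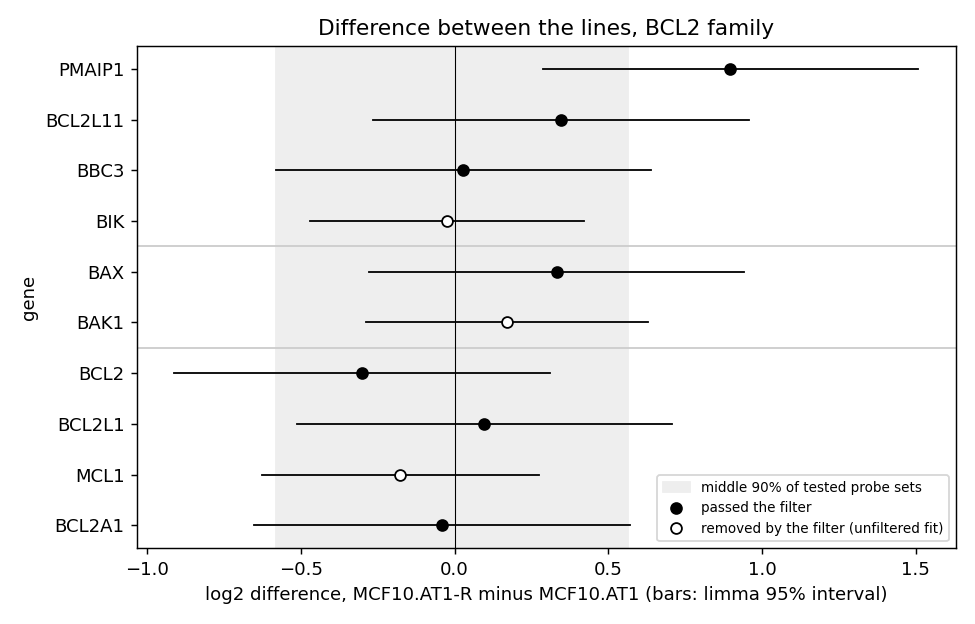
Log2 difference between the lines (MCF10.AT1-R minus MCF10.AT1, horizontal axis) for each BCL2 family gene, with the 95% interval from limma as bars. Filled points passed the filter, open points come from the fit without a filter, and grey runs from the 5th to the 95th percentile of all tested probe sets, from -0.58 to 0.57. Only the PMAIP1 point lies outside the grey band, and only its interval excludes 0.

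In all, 7 of the 10 genes passed the filter, and the adjusted p-values of the 10 lay between 0.179 and 0.990 in limma. The smallest log2 difference among the 620 calls was 1.07 in size, and all 10 genes were under it. B03 was the lowest of the MCF10.AT1-R arrays for 7 of the 10 genes. The share was 35.1% over all transcript probe sets. It was 40.7% over the 36324 whose mean level was above the negative controls, as those of BBC3 and BCL2A1 were not. On A03, 9 of the 10 genes read below each of the other 5 arrays, the exception being BBC3.

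**Figure D3:**
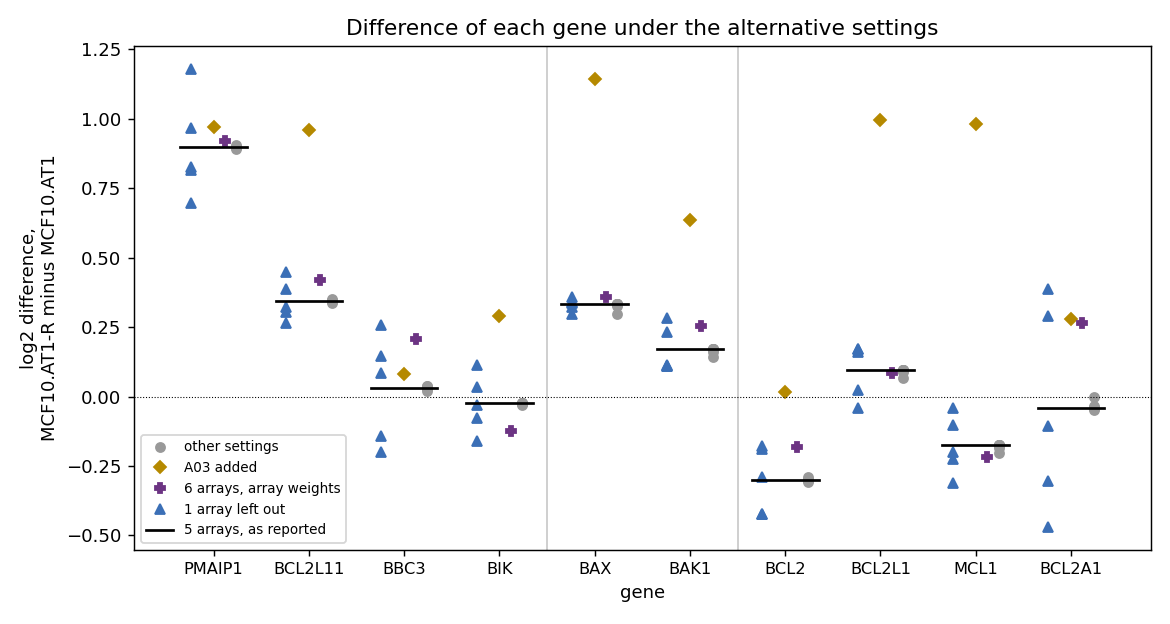
Log2 difference of each BCL2 family gene (MCF10.AT1-R minus MCF10.AT1, vertical axis) under the alternative settings. Black lines are the values over 5 arrays, triangles leave out 1 array each, diamonds add A03, crosses weight 6 arrays by quality and grey circles are the other settings. PMAIP1, BCL2L11, BAX and BAK1 stay above 0 throughout, BCL2A1, BBC3, BIK and BCL2L1 fall on both sides, BCL2 and MCL1 are above 0 only with A03 added, and adding A03 lifts all genes except BBC3 and PMAIP1 by more than 0.3.

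Of 13 other genes with BCL2 homology or a BH3-like motif, none passed FDR 5% in limma, where 1.2% of the probe sets tested did. None had an unadjusted p below 0.05 in that fit, while BNIP3 had 0.0472 in limma without a filter. The median log2 difference was 0.05. BID, a BH3-only protein cut by caspase 8, read 7.77 and 7.78 in MCF10.AT1 and 8.05, 8.02 and 8.13 in MCF10.AT1-R, a difference of 0.29 from the fit without a filter. BCL2L13 was also without overlap, at 3.73 and 3.61 against 4.28, 4.01 and 3.99. BNIP3, a mitophagy receptor raised by hypoxia, had the largest difference at -0.48 and the reverse order, at 5.63 and 5.46 in MCF10.AT1 and 4.87, 5.01 and 5.31 in MCF10.AT1-R (adjusted p = 0.756 from limma). The other 10 genes overlapped, among them BAD, BMF and BCL2L2, and BCL2L10 and BCL2L15 were within the negative controls on all 5 arrays.

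Among the genes of the apoptosome and mitochondrion, the caspases and the inhibitors of apoptosis, the arrays also showed no call. Of 9 apoptosome and mitochondrial factors, 7 caspases and 7 inhibitors of apoptosis, none passed FDR 5% in limma. Of these 23 genes 3 had an unadjusted p below 0.05, which under 5% of the probe sets tested reached in each direction. The 5th and 95th percentiles of the log2 difference over all tested probe sets were -0.58 and 0.57. CASP8, the initiator caspase of death receptors, was 5.76 and 5.27 in MCF10.AT1 and 4.28, 4.87 and 5.13 in MCF10.AT1-R, a log2 difference of -0.75 (adjusted p = 0.376 from limma). CASP6, an executioner, was 5.92 and 5.83 against 6.36, 6.55 and 6.58, a difference of 0.62 (adjusted p = 0.588 from limma). APAF1, the scaffold of the apoptosome, differed by -0.68, but its arrays overlapped, since B03 read 2.39 and the other MCF10.AT1-R arrays 3.69 and 3.41. Also higher without overlap were XIAP (0.35), which binds and inhibits caspases, and CYCS, the gene of cytochrome c, although CYCS lay between 9.82 and 9.94 on all 5 arrays. CASP2 (-0.50) and the channel gene VDAC3 (-0.28) were lower without overlap. Higher without overlap were 1 of the 9 factors, 2 of the 7 caspases and 1 of the 7 inhibitors. In the same order 1, 2 and 0 were lower. Over all transcript probe sets the shares were 12.2% higher and 11.1% lower. The median difference was -0.04 for the apoptosome and mitochondrial factors, -0.05 for the caspases and 0.17 for the inhibitors.

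Death receptors and their adaptors, 12 genes, also had no call and no unadjusted p below 0.05 in limma, and their median difference was 0.03. In limma without a filter, the unadjusted p was 0.0387 for TNFRSF10D and 0.0446 for TNFRSF1A. TNFRSF10A, a TRAIL receptor, was higher without overlap, at 6.73 and 6.67 against 7.10, 6.97 and 7.30, while the TRAIL decoy receptor TNFRSF10D was lower without overlap, at 6.85 and 6.57 against 6.13, 6.25 and 6.33. TNFRSF10D had the largest difference of this list, -0.47 (adjusted p = 0.763 from limma). TNFRSF1A was also lower without overlap, with a difference of -0.43. The ligand genes TNFSF10 and FASLG were within the negative controls on all 5 arrays. In all, 3 of the 12 genes were higher and 2 lower without overlap, where 12.2% and 11.1% of all transcript probe sets were.

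The calls in the pathway were among genes that regulate the members. Of 19 such genes 3 passed FDR 5% in limma, 2 higher and 1 lower, in a background of 0.758% higher and 0.447% lower. TNFAIP3, the NF-κB target that encodes the feedback inhibitor A20, read 4.16 on A01 and 3.85 on A02, and 6.54, 5.61 and 6.41 on B02, B03 and B04. It rose by a log2 difference of 2.18 (standard error 0.31, adjusted p = 1.78e-09 from limma), or 4.54-fold. TP63, a transcription factor of basal epithelium and also one of the basal markers above, rose from 4.55 and 4.08 to 5.97, 6.20 and 6.03, a difference of 1.74 (adjusted p = 8.14e-06 from limma). FOXO1, whose protein can raise BCL2L11, fell from 5.45 and 5.33 to 4.24, 3.56 and 3.98, a difference of -1.46 (adjusted p = 0.000596 from limma). FOXO1 has another probe set, which read 1.65 to 2.79, within the negative controls, and with both averaged the difference was -0.65 and the call was lost (adjusted p = 0.553 from limma). FOXO1 was also lost without A01 (adjusted p = 0.0806 from limma). TNFAIP3 and FOXO1 were lost with the low-expression filter alone, at adjusted p-values of 0.054 and 0.0943 from limma, where TP63 passed, and all 3 were lost when A03 was added.

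Other NF-κB genes did not pass over the 5 arrays, although NFKB2 and RELB did with 6 arrays weighted by quality. NFKB2 was 3.82 and 3.87 in MCF10.AT1 and 4.62, 4.49 and 4.84 in MCF10.AT1-R, and RELB was 5.06 and 4.53 against 5.49, 5.38 and 5.81, both without overlap and with log2 differences of 0.81 and 0.77 (adjusted p = 0.295 and 0.357 from limma). NFKB1, with a difference of 0.08, and NFKBIA, with 0.11, overlapped. BCL2A1, itself an NF-κB target, stayed in the background as described above. MYC was higher without overlap, at 7.83 and 7.74 against 8.5, 8.63 and 8.72 (difference 0.83, adjusted p = 0.268 from limma), and it passed, as STAT3 did, when the SD was let vary with the level. MDM2, a ubiquitin ligase, was also higher without overlap, at 6.58 and 6.65 against 7.20, 7.05 and 6.85, and did not pass FDR 5%. ATF4, a known regulator of PMAIP1, was 9.31 and 9.37 against 9.14, 9.08 and 9.21 (difference -0.19), lower without overlap. In all, 11 of the 19 regulators were higher and 3 lower without overlap, where 12.2% and 11.1% of all transcript probe sets were.

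Of 9 genes for the turnover of MCL1 and for binding partners of the members, none passed FDR 5% in limma. An unadjusted p below 0.05 was found for 1, where under 5% of the probe sets tested reached it in each direction. BTRC and FBXW7, substrate receptors of ubiquitin ligases that mark MCL1 for degradation, were both higher without overlap. BTRC read 5.67 and 5.45 in MCF10.AT1 and 6.33, 6.25 and 6.32 in MCF10.AT1-R, the largest difference of the list at 0.74 (adjusted p = 0.40 from limma). It passed when the SD was let vary with the level and with 6 arrays weighted by quality. FBXW7 read 4.83 and 4.89 against 5.48, 5.05 and 5.59, a difference of 0.52. YWHAZ, a 14-3-3 protein that holds phosphorylated BAD, was 9.12 and 9.31 against 9.65, 9.55 and 9.71, and it passed only when the SD was let vary with the level. The median difference of this list was 0.19, and 4 of the 9 genes were higher without overlap and none lower. Over the 6 lists outside the family, 22 of 63 genes were higher without overlap and 8 lower. Over all transcript probe sets the shares were 12.2% and 11.1%, and over those tested 12.9% and 13.8%. Most of the 63 genes were above the negative controls on all arrays compared, and the shares over such probe sets were not counted. Of the 63 genes 3 passed FDR 5%, as did 1.2% of the probe sets tested. These lists were chosen with earlier results of these data known.

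**Figure D4:**
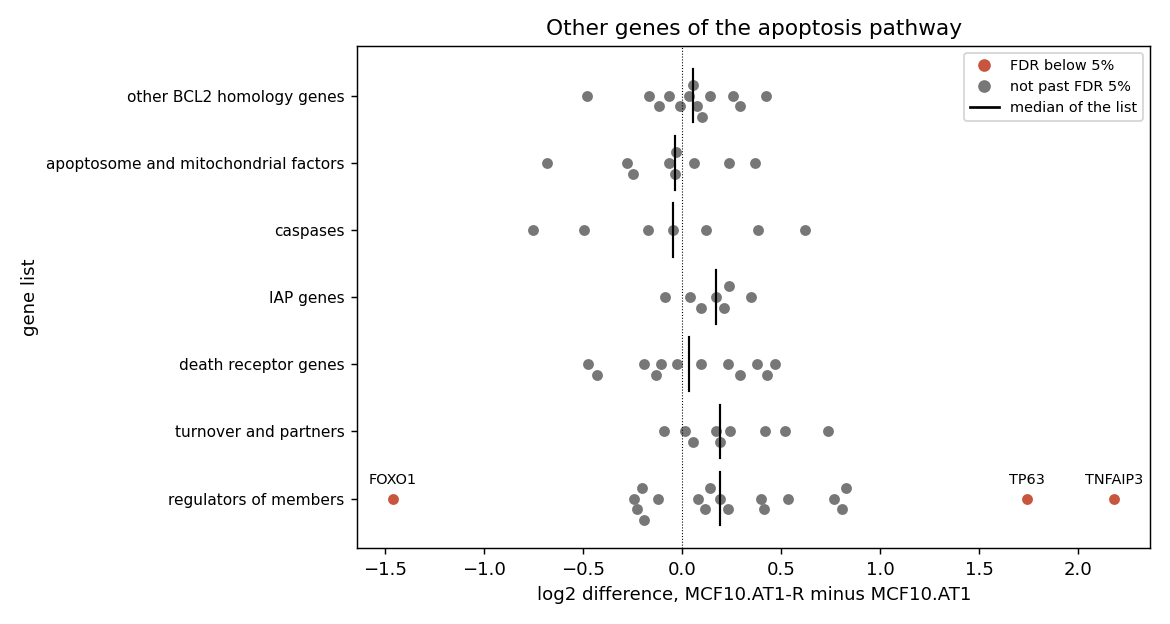
Log2 difference between the lines (MCF10.AT1-R minus MCF10.AT1, horizontal axis) for each gene of 7 lists of the apoptosis pathway (vertical axis), with the median of each list as a vertical line. Coloured points passed FDR 5% in limma, which only TNFAIP3, TP63 and FOXO1 among the regulators did, and grey points did not.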

How the data were processed

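The samples were 3 MCF10.AT1 and 3 MCF10.AT1-R cultures on Clariom D arrays. The authors preprocessed the scanner files by RMA (background correction, quantile normalization and probe summary) with the Bioconductor packages affy and oligo, and deposited the log2 level of every probe set in each sample. The genome build and the versions of affy and oligo are not given in the sources used here. Array names were tied to the lines through the legend of the study's principal component plot and carry no replicate number.

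The 2995 control probe sets were left out of the tests. A probe set was tested if its average of the 5 arrays exceeded the median (1.88) and its SD exceeded the lowest 25% (0.18), limits chosen here for the low and invariant genes that the methods say were removed. Differences were fitted with lmFit and eBayes (limma 3.58.1, R 4.3.3), two-sided, with Benjamini-Hochberg adjustment over all probe sets tested and a threshold of FDR 5%. Filtering on the SD made limma take a single SD, 0.34, for every probe set, which widens the intervals of genes whose replicates were close and narrows those of variable genes. Genes that the filter removed were taken from the fit without it. The number of arrays limits the precision.

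Named genes are the 10 members, the genes of the other lists past FDR 5% or with the largest difference of a list, and the listed pseudogenes of BAK1 (BAK1P1 and BAK1P2). No antisense symbol of a member was listed. Some genes of the lists are counted but not reported here by name. Others of the lists were named after their values were seen, mostly because their arrays did not overlap. The members and lists were chosen with earlier results of these data known. The promoter motifs were chosen after the values were seen. Where a symbol had several probe sets, the probe set of highest average level was taken. Alternatives changed the filters, the variance model, the arrays, the normalization, the handling of probe sets, the background and the threshold.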

Additional observations from a re-analysis of the deposited data

How the results depend on the processing

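No paired analysis was possible because the array columns carry none of the labels' replicate numbers. The count of 0 BCL2 family genes past FDR 5% became 1, PMAIP1, with 6 arrays weighted by quality (log2 difference 0.92, adjusted p = 0.0386 from limma), and it ranged from 0 to 1 with 1 array left out, the 1 being PMAIP1 without B03. Over all alternatives the adjusted p of PMAIP1 lay between 0.0315 and 0.777. The count for the other BCL2 homology genes was 0 throughout. For the 6 other pathway lists the count of 3 became 1 with the low-expression filter alone, 7 with a variance that follows the level and 7 with both of these (STAT3, MYC, BTRC and YWHAZ added in each), 0 with A03 added, 6 with array weights (NFKB2, RELB and BTRC added) and 1 with values under the negative controls raised to their 95th percentile, and 2 to 3 with 1 array left out. Over all probe sets the 620 calls became 182 with the low-expression filter alone, 177 without a filter, 1377 and 1086 with a variance that follows the level (both filters, or the low-expression filter alone), 26 with A03 added, 1744 with array weights, 272 with raised values, and 314 without A01 and 271 without A02, where the lone MCF10.AT1 array is taken to have the spread of the other line. The median log2 difference of the 10 genes, 0.06, was 0.80 with A03 added, 0.23 with array weights and 0.074 to 0.24 with 1 array left out. Adding A03, which read low, turned BCL2 (0.017), MCL1 (0.98), BCL2A1 (0.28) and BIK (0.29) to higher in MCF10.AT1-R, and array weights turned BCL2A1 (0.27). With 1 array left out, the ranges that crossed 0 were -0.043 to 0.17 for BCL2L1, -0.47 to 0.39 for BCL2A1, -0.20 to 0.26 for BBC3 and -0.16 to 0.11 for BIK. Of 150 values of single members under alternatives, 136 kept their direction and their side of the threshold, 12 changed direction and 2 passed the threshold. Unless named above, the cause was not tested. No outlier test was made within lines, since each has 3 arrays at most.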
